A study of Mus musculus with 6 samples.

Results

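The DEAD and DEAH box RNA helicases are enzymes named for 4 amino acids of the motif with which they bind and split ATP. The genes examined here were the protein-coding genes of the expression table whose symbols begin with *Ddx* or *Dhx* and a number, leaving out *Ddx4* and *Ddx25*. There were 51 of them, 35 named *Ddx* and 16 named *Dhx*, among 54532 genes in all and 22046 protein-coding genes.

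The values were RNA-seq of STRA8+ cells, germ cells isolated from the testes of mice, with 3 Control libraries (Control1 to Control3) and 3 cKO libraries (cKO1 to cKO3). The labels give the genotype of the Control group as Cre and that of the cKO group as *Srsf1* knockout, by conditional deletion. They name neither the Cre line, the age of the mice nor the number of animals behind a library, so the p-values below measure the spread between these libraries. SRSF1 is a serine- and arginine-rich splicing factor that binds exons and helps to define splice sites, and the comparison asks how its loss altered the RNA of these cells. Levels are in FPKM, a measure of fragments counted that corrects for how long a gene is and how deeply a library was sequenced.

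DEAD box proteins pry short duplexes apart and strip proteins from RNA, while DEAH box proteins move along a strand from its 3′ side. Through these steps they drive the spliceosome from one state to the next, remodel ribosomal RNA precursors, release mRNA at the nuclear pore, and open structured leaders for the ribosome. In germ cells, members of the family also serve the long storage of mRNA that precedes its translation.

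The labels were first checked against known genes. *Srsf1* itself was at 84.7, 45.2 and 51.9 FPKM in Control1, Control2 and Control3, and at 5.08, 4.94 and 5.17 FPKM in cKO1, cKO2 and cKO3. *Stra8* lay between 222 and 313 FPKM in all 6 libraries, and of 6 markers of STRA8+ spermatogonia 1 was lower (*Dmrtb1*), while of 3 general germ cell markers 1 was higher (*Dazl*) and 1 lower (*Ddx4*), the latter called in 1 of 6 fits that left out a library and the former in 5. All 8 of the spermatid markers listed were lower in cKO, and their summed level was 2507 to 8423 FPKM in the Control libraries against 6.54 to 7.57 FPKM in the cKO libraries. Control2 stood apart with the sum of 8423 FPKM, beside 2553 and 2507 FPKM in Control1 and Control3. Of 8 markers of pachytene spermatocytes 7 were lower, with sums of 1030 to 1215 FPKM against 222 to 251 FPKM. Of 8 markers of early meiotic prophase 1 was lower, with sums of 805 to 1040 FPKM against 820 to 1062 FPKM. Of the markers of somatic cells, 7 of Sertoli cells and 2 each of Leydig cells, peritubular cells and macrophages and blood were tested. Of these 1 passed the threshold, *Rhox5* of Sertoli cells, which was higher, and no listed marker was at 0 in all libraries. The call of *Rhox5* held in 2 of 6 fits that left out a library, on 19 to 60 fragments. The summed peritubular markers did not overlap between groups, at 3.22 to 5.69 FPKM in Control and 6.31 to 6.93 FPKM in cKO. The sums overlapped for Sertoli cells (57.4 to 86.2 against 48.3 to 119 FPKM), for Leydig cells (2.95 to 14.0 against 6.34 to 10.7 FPKM) and for macrophages and blood (4.94 to 8.45 against 5.16 to 6.46 FPKM). In such bulk RNA, fewer cells of a type and less RNA per cell cannot be told apart. The part of these differences in the values below was not tested.

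Nearly the whole family was expressed. In the Control libraries the mean levels of the members ran from 0.221 to 290 FPKM, with a median of 20.2 FPKM, and 37 of 51 members were at 10 FPKM or more in every library. Summed over the family, the levels were 1697, 1553 and 1619 FPKM in the Control libraries and 1690, 1731 and 1640 FPKM in the cKO libraries. These sums overlapped between the groups. The sensor genes *Ddx58* and *Ddx60* had means under 1 FPKM and were not tested, which left 49 members.

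**Figure D1:**
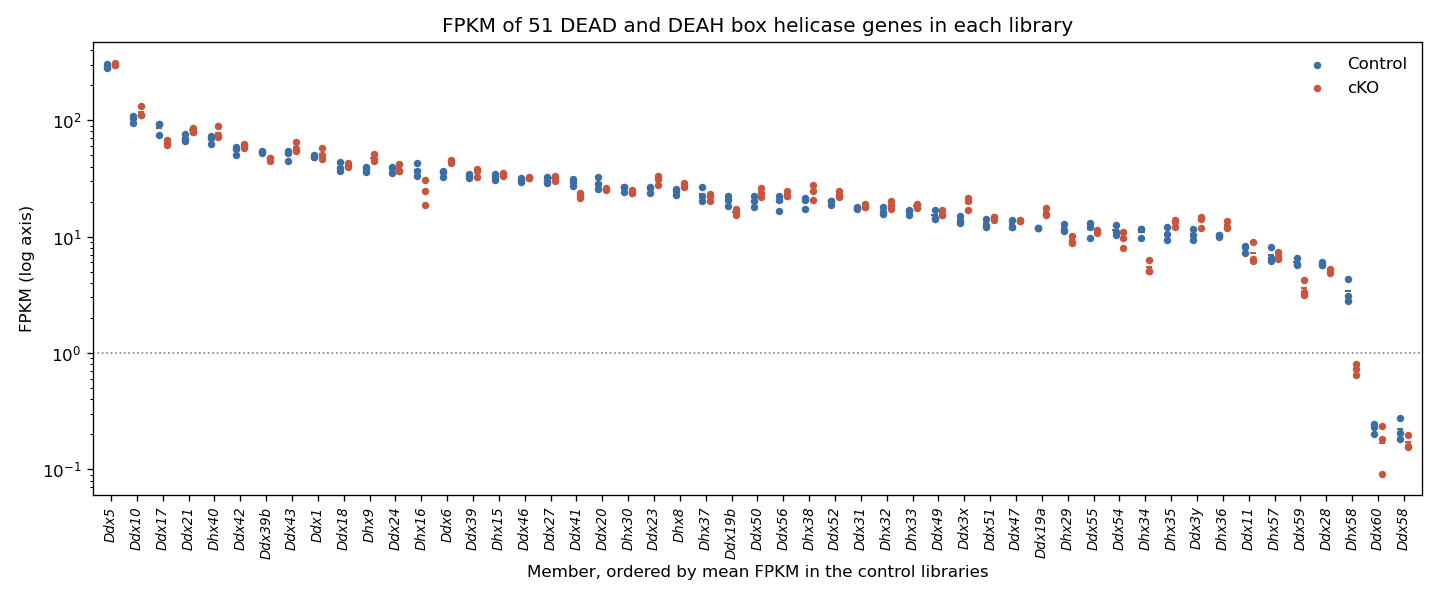
FPKM of the 51 members on a log axis, with a point for each library, a short line at each group mean and a dotted line at 1 FPKM. *Ddx5* is the most abundant member, between 278 and 310 FPKM over both groups, and the cKO libraries of *Dhx58* lie below 1 FPKM.

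The 5 members with the highest mean levels were *Ddx5*, *Ddx10*, *Ddx21*, *Ddx17* and *Dhx40*. *Ddx5* (p68), a cofactor of splicing and transcription, was at 303, 278 and 289 FPKM in the Control libraries and 296, 310 and 296 FPKM in the cKO libraries. The groups overlapped, and the log2 fold change was 0.05 ± 0.07 (SE; limma, adjusted p = 0.592), so that 2 SE on either side spanned -0.09 to 0.19. *Ddx10*, which acts in the processing of the small ribosomal subunit, had 105, 94.6 and 108 FPKM against 112, 132 and 110 FPKM. *Dhx40*, whose role is less defined, had 72.9, 62.3 and 70.6 FPKM against 74.9, 88.7 and 71.5 FPKM. The groups did not overlap for *Ddx10* and overlapped for *Dhx40*, and neither passed the threshold (log2 fold changes of 0.20 ± 0.10 and 0.19 ± 0.10, adjusted p = 0.16 and 0.21). *Ddx17* and *Ddx21* are described with their roles below.

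Against an adjusted p of 0.05 over all 15451 genes tested, 6 of 49 members were higher in cKO (12.2%) and 8 were lower (16.3%). Of all genes tested, 11.8% were higher and 22.2% lower. The median log2 fold change was 0.07 over the members and -0.01 over all genes. The members had 32 values above 0 and 17 below. Groups that did not overlap were found for 23 members (46.9%), and for 50.4% of all genes. Large changes were few: 4 members (8.16%) had an absolute log2 fold change of at least 0.5, as did 28.7% of all genes, and all 4 were lower in cKO. The median Control level was 20.4 FPKM among the 49 members tested and 7.27 FPKM among all genes tested. The counts were 3 higher and 4 lower without Control1, cKO2 or cKO3, when 6.27% to 8.15% of all genes were higher and 17.4% to 19.6% lower, and the median of the members was 0.12 without Control1 and 0.11 without cKO3. Without Control3 or cKO1 they were 3 higher with 5 or 7 lower. In both of these fits the shares of all genes called higher and lower also lay within 6.27% to 8.15% and 17.4% to 19.6%. The split of calls depended on the processing. It was 8 higher and 8 lower with median-of-ratios scaling, against 12.7% and 22.0% of all genes. It was 10 higher and 5 lower with FPKM recomputed per fragments counted, where 14.8% and 21.1% of all genes were called. It was 13 and 8 with limma-voom, against 16.1% and 21.6% of all genes, and 20 and 4 with quantile normalization, against 33.4% and 16.4%. Quantile normalization moved the median of all genes to 0.21 and that of the members to the same 0.21. None of the 14 calls turned its direction under any alternative.

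**Figure D2:**
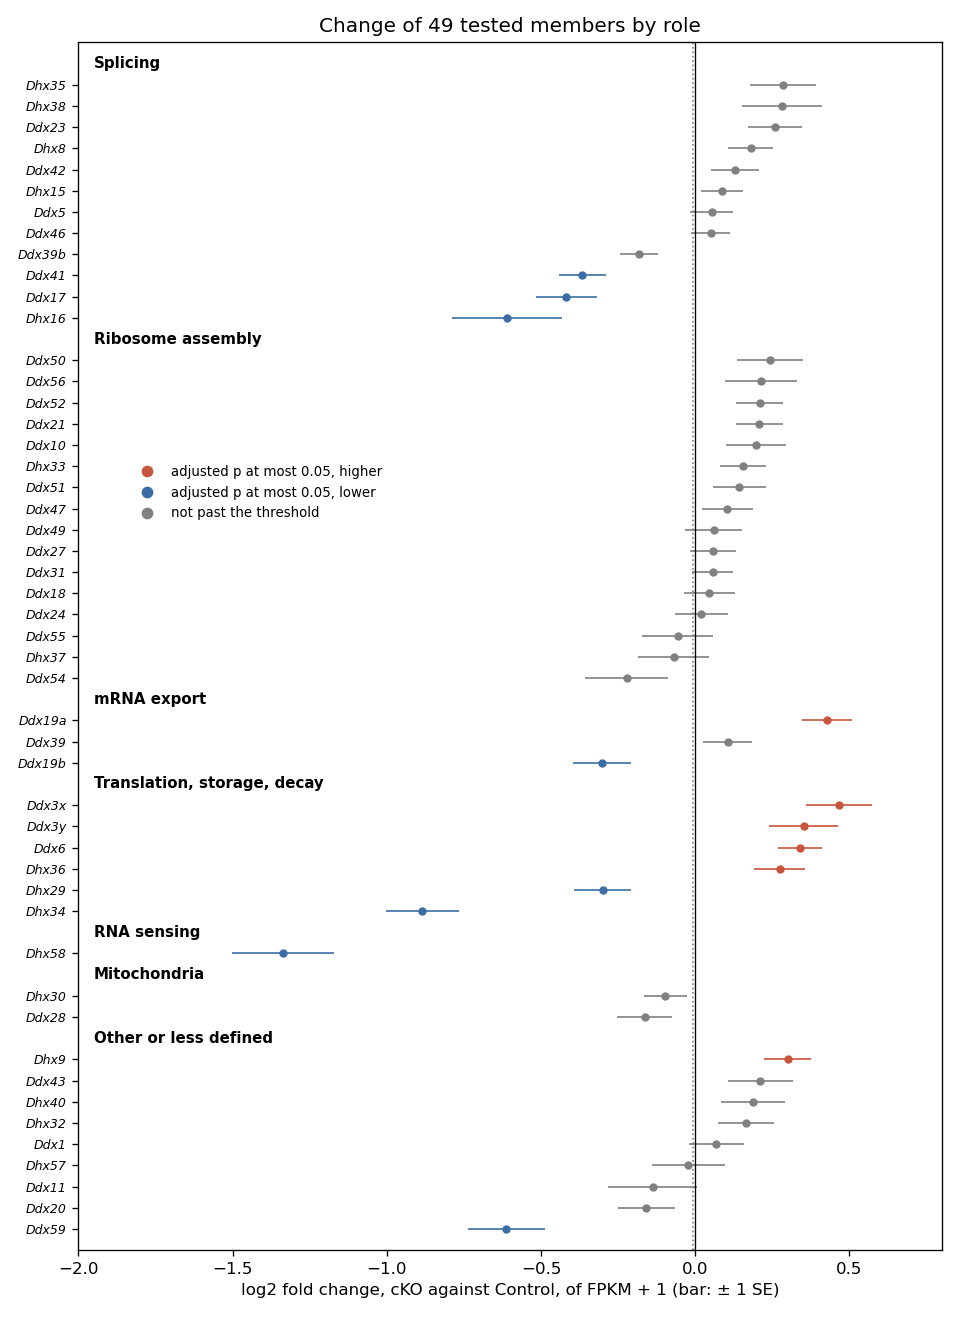
Log2 fold change of FPKM + 1, cKO against Control, for the 49 tested members grouped by role, with bars of 1 SE. The solid line marks 0 and the dotted line the median of all genes at -0.01, and the 6 coloured points on the right and 8 on the left passed an adjusted p of 0.05.

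Among the 12 members that act in splicing, 3 were lower (25.0%, beside 22.2% of all genes), none was higher (11.8% of all genes) and 9 did not pass the threshold, and their median change on the log2 scale was 0.07. With limma-voom *Ddx23*, *Dhx8* and *Dhx35* were called higher, and with quantile normalization these and *Dhx38*, while *Dhx16* was no longer called. *Dhx16* (PRP2) is the helicase that makes the assembled spliceosome ready for its first reaction. It was at 43.2, 33.1 and 36.7 FPKM in the Control libraries and at 30.6, 18.8 and 24.5 FPKM in the cKO libraries. The groups came close but did not overlap, and the log2 fold change was -0.61 ± 0.18 (adjusted p = 0.0381). This call was lost without Control1 (adjusted p = 0.118), Control3 (0.0869), cKO2 (0.0758) or cKO3 (0.0977).

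*Ddx17* (p72), the close relative of *Ddx5*, had 91.9, 74.6 and 92.8 FPKM in Control and 67.7, 63.4 and 61.5 FPKM in cKO. All 3 cKO libraries were below the lowest Control library, and the level in cKO was 74.3% of that in Control (log2 fold change -0.42 ± 0.10, adjusted p = 0.0178). The adjusted p was 0.0631, 0.0632, 0.0507 and 0.0695 without Control1, Control3, cKO2 and cKO3. *Ddx41*, a helicase of the late spliceosome, was at 31.5, 29.3 and 27.3 FPKM against 23.5, 21.6 and 22.6 FPKM. Its groups did not overlap, and the fall of 0.37 ± 0.08 on the log2 scale (adjusted p = 0.0112) held whichever library was left out. *Gm46416*, a gene on the opposite strand that shares 17.4% of the exonic bases of *Ddx41*, was listed at 0 in every library.

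The other splicing members kept closer to the Control level. *Ddx39b* (UAP56), which joins early in spliceosome assembly and then loads the export machinery, was at 54.4, 51.9 and 53.1 FPKM in Control and 47.7, 44.8 and 47.8 FPKM in cKO. The groups did not overlap, yet the adjusted p was 0.0603 for a log2 fold change of -0.18 ± 0.06. *Dhx15* (PRP43), which takes spent spliceosomes apart, had 34.2, 30.8 and 32.4 FPKM against 34.6, 35.5 and 33.4 FPKM, with a log2 fold change of 0.09 ± 0.07 (adjusted p = 0.371). *Dhx8* (PRP22), which releases the spliced mRNA, had 24.7, 22.7 and 25.4 FPKM against 26.5, 28.7 and 27.6 FPKM. Its groups did not overlap, but the log2 fold change of 0.18 ± 0.07 did not pass (adjusted p = 0.101). For *Ddx23* of the U5 snRNP, *Dhx38* (PRP16) and *Dhx35*, the log2 fold changes were 0.26, 0.28 and 0.29 with adjusted p of 0.0615, 0.139 and 0.0806. *Ddx42* and *Ddx46* (PRP5), both of the U2 snRNP, had 0.13 and 0.05.

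None of the 16 members that act in ribosome assembly passed the threshold in either direction under limma, where 11.8% of all genes were higher and 22.2% lower. An unadjusted p under 0.05 was found for 2 of the 16, and for 6929 of the 15451 genes tested. The median log2 fold change of the 16 members was 0.08, and 13 of 16 values were above 0. *Ddx21*, which couples transcription and processing of ribosomal RNA in the nucleolus, was at 76.0, 66.9 and 68.9 FPKM in Control and 79.7, 86.0 and 79.2 FPKM in cKO. All cKO libraries were above all Control libraries, and the log2 fold change was 0.21 ± 0.07 (adjusted p = 0.0726). Its nucleolar relative *Ddx50* had 22.4, 17.8 and 20.3 FPKM against 22.0, 26.4 and 23.6 FPKM. Here the groups overlapped, with a log2 fold change of 0.24 ± 0.11 (adjusted p = 0.128).

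The remaining ribosome factors had log2 fold changes between -0.22 and 0.21. *Ddx52* had a log2 fold change of 0.21 (adjusted p = 0.0741), *Ddx56* 0.21 and *Dhx33* 0.15. Of the others above 0, *Ddx51* had 0.14, *Ddx47* 0.10, *Ddx49* 0.06, *Ddx27* 0.06, *Ddx31* 0.06, *Ddx18* 0.05 and *Ddx24* 0.02. The 3 below 0 were *Ddx54* at -0.22, *Dhx37* at -0.07 and *Ddx55* at -0.06. The counts of *Ddx18* and *Ddx49* are less certain, since 65.4% and 78.9% of their 100-base windows are found in no other annotated gene. Calls in this group depended on the processing. With limma-voom *Ddx21*, *Ddx50*, *Ddx52* and *Dhx33* were called higher, and with quantile normalization *Ddx10*, *Ddx47*, *Ddx51* and *Ddx56* were called as well.

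Of the 3 members that act in mRNA export, 1 was higher, 1 was lower and 1 did not pass the threshold, beside 11.8% higher and 22.2% lower among all genes. *Ddx19a* and *Ddx19b* both encode the helicase that removes proteins from mRNA as it leaves the nuclear pore. *Ddx19a* lies on the minus strand of chromosome 8 (chr8:110974996-110997800 in GRCm38), and *Ddx19b* lies beside it, upstream on the same strand (chr8:111003188-111031751). Their longest coding transcripts have 12 exons each and encode 478 and 494 residues.

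*Ddx19a* was at 11.7, 11.8 and 11.8 FPKM in the Control libraries and at 15.3, 17.7 and 15.7 FPKM in the cKO libraries. The Control libraries were almost equal and every cKO library was above them, at a mean of 138% of Control. The rise of 0.43 ± 0.08 on the log2 scale (adjusted p = 0.00695) held in all 6 fits that left out a library. *Ddx19b* was at 22.3, 20.6 and 18.3 FPKM in Control and at 17.4, 16.2 and 15.4 FPKM in cKO. The groups did not overlap, and the log2 fold change was -0.30 ± 0.09 (adjusted p = 0.045). Left without Control1, Control2, cKO1, cKO2 or cKO3, its adjusted p was 0.129, 0.0864, 0.0636, 0.101 and 0.148. With quantile normalization the log2 fold change of *Ddx19b* was -0.16 and the call was lost (adjusted p = 0.167). The pair share 569 windows of 100 bases, which left 80.7% of the windows of *Ddx19a* and 91.4% of those of *Ddx19b* found in no other gene, and how shared fragments were counted is not given in the sources used here. *Ddx39* (URH49), a relative of *Ddx39b* in mRNA export, had 34.5, 33.3 and 31.8 FPKM against 38.0, 36.9 and 32.6 FPKM. The groups overlapped, with a log2 fold change of 0.11 ± 0.08 (adjusted p = 0.344). Exons of *Adgre5* on the opposite strand cover 17.4% of its exonic bases, so that its counts are less certain, and *Adgre5* was between 2.46 and 3.44 FPKM.

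The 250 bases before the RefSeq start of both genes (GRCm38.p6) are shown because these neighbours, alike in product, were called in opposite directions. The call of *Ddx19b* held in only 1 of 6 fits that left out a library. Another member that rose (*Dhx9*) and another that fell (*Ddx17*) are given for comparison, both with a window free of annotated exons. Each window is read 5′ to 3′ on the strand of its gene, the minus strand for all 4. Capitals mark matches, on either strand, to GGGCGG, to the letters CCAAT or to TGACGTCA.
Ddx19a, chr8:110997824-110998073: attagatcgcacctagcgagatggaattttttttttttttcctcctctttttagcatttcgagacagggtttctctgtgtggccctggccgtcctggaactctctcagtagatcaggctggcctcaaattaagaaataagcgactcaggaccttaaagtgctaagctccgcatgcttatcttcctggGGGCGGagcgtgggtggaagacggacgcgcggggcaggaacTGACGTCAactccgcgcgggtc
Ddx19b, chr8:111031752-111032001: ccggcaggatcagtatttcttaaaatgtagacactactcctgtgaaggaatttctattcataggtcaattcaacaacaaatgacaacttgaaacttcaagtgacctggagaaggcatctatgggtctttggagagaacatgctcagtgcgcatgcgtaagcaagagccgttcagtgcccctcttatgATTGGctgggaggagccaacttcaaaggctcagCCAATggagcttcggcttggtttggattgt
Dhx9, chr1:153487661-153487910: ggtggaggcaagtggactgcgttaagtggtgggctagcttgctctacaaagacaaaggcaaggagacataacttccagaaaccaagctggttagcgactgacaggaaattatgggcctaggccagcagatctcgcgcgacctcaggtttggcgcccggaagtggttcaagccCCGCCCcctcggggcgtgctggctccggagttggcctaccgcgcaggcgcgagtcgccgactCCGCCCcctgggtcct
Ddx17, chr15:79546742-79546991: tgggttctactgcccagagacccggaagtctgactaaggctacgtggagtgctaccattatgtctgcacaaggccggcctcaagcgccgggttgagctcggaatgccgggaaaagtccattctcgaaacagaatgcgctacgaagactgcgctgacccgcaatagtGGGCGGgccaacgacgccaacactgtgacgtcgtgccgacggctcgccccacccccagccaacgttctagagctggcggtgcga

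The window of *Ddx19a* holds GGGCGG, the core of the GC box, and TGACGTCA, the palindrome of the cAMP response element. That of *Ddx19b* holds neither and has the letters CCAAT once on each strand. *Dhx9* has GGGCGG in the other orientation at 2 places, and *Ddx17* has it once. Windows were found for 45 of 51 members. GGGCGG was in 64.4% of these, in 59.5% of the windows of 9717 expressed protein-coding genes and in 32.9% of all 27025 windows. It was in 4 of the 5 windows of members that were higher and in 4 of the 7 of members that were lower. Of the 31 windows of tested members not called, 20 held it. In these 3 sets, TGACGTCA was in 2, 0 and 2 windows, and CCAAT in 0, 3 and 14. TGACGTCA was in 8.9% of the members' windows, 2.9% of those of expressed genes and 1.6% of all. In the same order, CCAAT was in 40.0%, 37.0% and 34.5%, TATAAA in 4.4%, 5.9% and 13.0%, and CACGTG in 6.7%, 8.9% and 6.0%. The motifs were searched on both strands and do not contain each other. Each member's window was the one nearest the start of its longest coding transcript. For the shares of expressed and of all genes, the first window listed for each gene was taken. A match describes letters in the window and not bound protein.

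All 6 members that act in the translation, storage or decay of mRNA passed the threshold, 4 of them higher and 2 lower, beside 11.8% and 22.2% of all genes, and the median of their log2 fold changes was 0.31. This grouping was made by hand with earlier results known, and only *Ddx6* and *Dhx34* kept their calls whichever library was left out. *Ddx3x* is an X-linked helicase that helps ribosomes to start on structured leaders, and *Ddx3y* is its counterpart on the Y chromosome. *Ddx3x* was at 13.5, 13.2 and 14.9 FPKM in Control and at 20.2, 16.9 and 21.7 FPKM in cKO. All cKO libraries were above all Control libraries, with a mean of 141% of Control. With all 6 libraries fitted, the rise of *Ddx3x* was the largest in the family (log2 fold change 0.46 ± 0.11, adjusted p = 0.0155). Without cKO3 it was 0.39. The adjusted p was 0.0525, 0.0547 and 0.06 without Control1, cKO1 and cKO3. *Ddx3y* was at 11.5, 9.44 and 10.4 FPKM against 11.9, 14.9 and 14.0 FPKM. The lowest cKO library was just above the highest Control library, and the log2 fold change was 0.35 ± 0.11 (adjusted p = 0.0492). This call held only without cKO1, and the adjusted p ran from 0.0519 to 0.146 without any of the other 5 libraries.

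*Ddx6*, which holds mRNA in translationally silent granules and activates decapping, had 36.5, 32.6 and 35.9 FPKM in Control and 45.7, 42.9 and 45.0 FPKM in cKO. The groups were well apart, and the rise of 0.34 ± 0.07 (adjusted p = 0.0104) held whichever library was left out. *Dhx36*, which unwinds G-quadruplexes, had 10.4, 9.83 and 10.3 FPKM against 12.1, 13.6 and 11.9 FPKM. Its groups did not overlap (log2 fold change 0.27 ± 0.08, adjusted p = 0.0425), but the adjusted p was 0.077 to 0.11 whenever any of the 6 libraries was left out.

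The 2 that were lower were *Dhx34* and *Dhx29*. *Dhx34*, a factor of nonsense-mediated decay, the route that destroys mRNA with premature stop codons, was at 11.7, 11.5 and 9.67 FPKM in Control and at 5.08, 5.08 and 6.30 FPKM in cKO. No cKO library came near the Control range, and the mean was 50.0% of Control (log2 fold change -0.89 ± 0.12, adjusted p = 0.00145). The call held in all 6 fits that left out a library. *Dhx34* lies on the minus strand of chromosome 7 (chr7:16197147-16222037), no exon of another gene overlaps its exons, and 100% of its 100-base windows are found in no other gene. *Dhx29*, which assists scanning of structured leaders by the small ribosomal subunit, had 12.8, 11.1 and 11.3 FPKM against 10.2, 9.03 and 8.88 FPKM. The groups did not overlap, and the log2 fold change was -0.30 ± 0.09 (adjusted p = 0.0453). It kept its call without cKO1 and lost it without Control1, Control2, Control3, cKO2 or cKO3, with adjusted p of 0.131, 0.0512, 0.0902, 0.113 and 0.148. With quantile normalization the log2 fold change of *Dhx29* was -0.09 and the call was lost (adjusted p = 0.474).

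**Figure D3:**
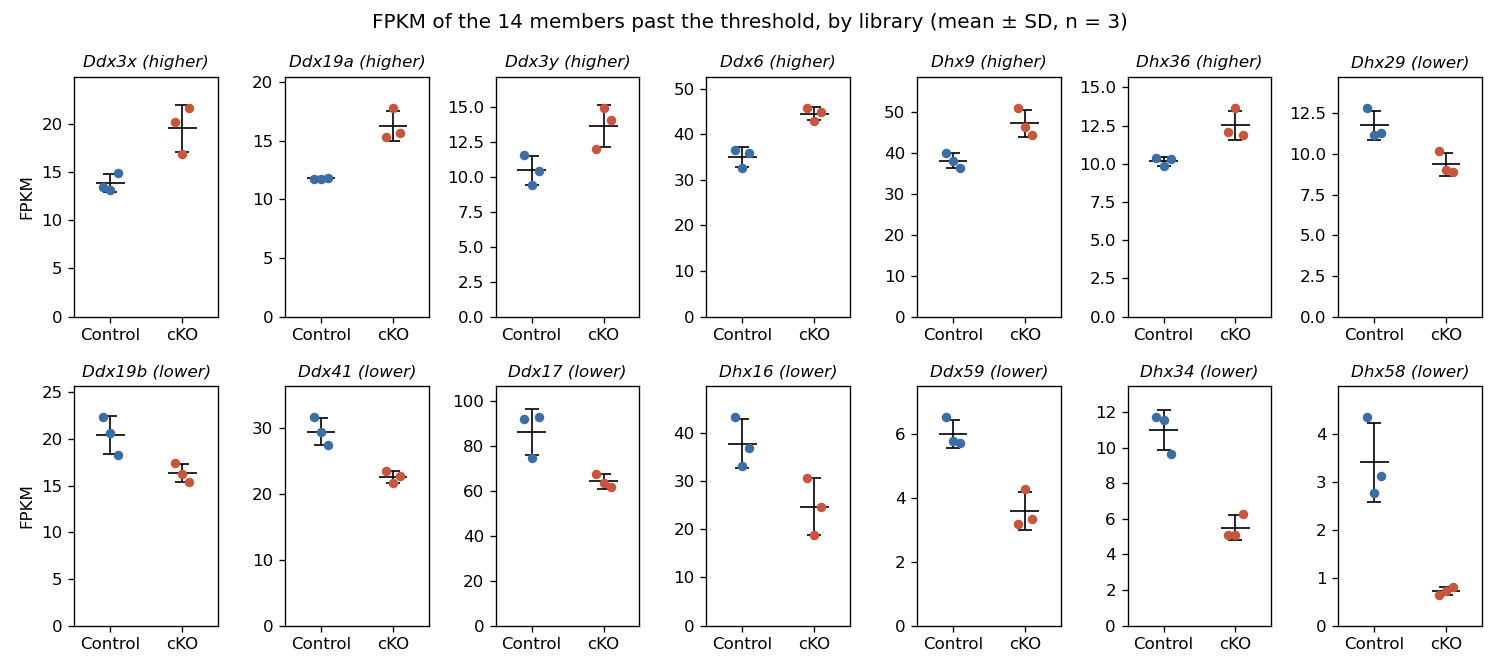
FPKM of the 14 members past the threshold in each library, on axes that start at 0, with the mean and SD of 3 libraries. No panel shows groups that overlap, and the cKO mean is 21.3% of the Control mean for *Dhx58* and 141% for *Ddx3x*.

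The members that sense foreign RNA were the least abundant of the family. *Dhx58* (LGP2) is a relative of RIG-I that lacks its signalling domains and tunes the response to viral RNA. It was at 4.34, 2.77 and 3.11 FPKM in the Control libraries and at 0.642, 0.730 and 0.804 FPKM in the cKO libraries, on 33 to 234 fragments per library. The cKO mean was 21.3% of the Control mean, and the log2 fold change of FPKM + 1 was -1.34 ± 0.17 (adjusted p = 0.00102). It held without any single library. With a cKO mean of 0.726 FPKM, *Dhx58* reached the mean of 1 FPKM needed for the test only through the Control libraries, at 3.41 FPKM. *Dhx58* lies on chromosome 11 (chr11:100694884-100704271, minus strand), and *Dhx58os* on the opposite strand was at 0.343 FPKM or less in every library. *Ddx58* (RIG-I) itself was at 0.181, 0.278 and 0.205 FPKM in Control and 0.199, 0.155 and 0.159 FPKM in cKO, on 16 to 30 fragments. *Ddx60*, an interferon-induced gene, was at 0.231, 0.248 and 0.200 FPKM against 0.235, 0.181 and 0.0909 FPKM. The groups overlapped for both, at a depth of 12 to 33 fragments for *Ddx60*.

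The mitochondrial members *Dhx30* and *Ddx28*, which assist assembly of the mitochondrial ribosome, had log2 fold changes of -0.10 and -0.16 and did not pass (adjusted p = 0.32 and 0.201). Of the 9 members with other or less defined roles, 1 was higher (11.1%, beside 11.8% of all genes) and 1 lower (22.2% of all genes). *Dhx9* (RNA helicase A), which resolves long duplexes and R-loops, had 39.9, 38.1 and 36.2 FPKM in Control and 50.8, 46.3 and 44.3 FPKM in cKO. Its groups did not overlap (log2 fold change 0.30 ± 0.08, adjusted p = 0.0236). The adjusted p was 0.0846, 0.0703 and 0.0509 without Control3, cKO1 and cKO2. *Ddx59*, whose mutations in humans affect limb and face development, had 6.52, 5.77 and 5.72 FPKM against 3.17, 4.28 and 3.34 FPKM. Its cKO mean was 59.9% of Control, with no overlap (log2 fold change -0.61 ± 0.12, adjusted p = 0.00957), and it held without any single library. With quantile normalization the log2 fold change of *Ddx59* was -0.31 and the call was lost (adjusted p = 0.085). *Ddx43*, a helicase known from germ cells, had a log2 fold change of 0.21 (adjusted p = 0.168), and *Ddx20* of the SMN complex, *Ddx11*, *Dhx57*, *Ddx1* and *Dhx32* had -0.16, -0.14, -0.02, 0.07 and 0.16.

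The calls that held in all 6 fits without a library were those of *Ddx19a* and *Ddx6* among the 6 higher, and *Dhx58*, *Dhx34*, *Ddx59* and *Ddx41* among the 8 lower. In the library with the most spermatid RNA, Control2, none of the 8 lower members had its highest Control value, while 4 of them had their lowest. The highest Control value was in Control1 for 7 of the 8. The summed level of the whole family was also lowest in Control2 among the Control libraries (1553 FPKM), and the share of all genes with this pattern was not computed. Without Control2, 5 members were higher and 6 lower (11.4% and 22.7% of all genes), *Dhx35* was among the higher, and *Ddx19b*, *Ddx3y*, *Dhx29* and *Dhx36* were no longer called. The higher members likewise had no highest value there and 4 of 6 had their lowest Control value in Control2. The spermatid sum, like the 8 lower members, was lower in every cKO library, and its part in their values was not tested.

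Pairs of related members were then compared within each library, as the log2 ratio of FPKM + 1, for 7 pairs. With 3 libraries against 3, an exact permutation test cannot go below p = 0.1, so no pair could pass the threshold. For *Ddx19a* over *Ddx19b* the ratio was -0.87, -0.76 and -0.59 in Control and -0.17, 0.12 and 0.02 in cKO. The *Ddx19b* transcript prevailed in every Control library and the genes were about level in cKO, with a difference of 0.73 (exact two-sided p = 0.1, adjusted p = 0.175). For *Ddx5* over *Ddx17* the ratio was 1.71, 1.88 and 1.63 in Control against 2.11, 2.27 and 2.25 in cKO, a difference of 0.47 with the same exact p of 0.1. Its groups did not overlap, since *Ddx17* was lower while *Ddx5* was not past the threshold.

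For *Ddx39* over *Ddx39b* the mean ratio was -0.66 ± 0.05 in Control and -0.38 ± 0.14 in cKO (SD, n = 3), again without overlap and with an exact p of 0.1. *Ddx58* over *Dhx58* was -1.84 ± 0.31 in Control and -0.56 ± 0.09 in cKO (SD, n = 3, exact p = 0.1), a ratio whose size depends on the 1 FPKM added, since *Ddx58* was below that level. The other 3 pairs overlapped between groups. *Ddx3x* over *Ddx3y* was 0.38 ± 0.15 in Control and 0.49 ± 0.28 in cKO, and both genes were higher. *Ddx21* over *Ddx50* was 1.76 ± 0.08 and 1.73 ± 0.07, and *Dhx15* over *Dhx8* was 0.41 ± 0.06 and 0.31 ± 0.05 (exact p = 0.6, 0.5 and 0.2 for the 3 pairs).

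**Figure D4:**
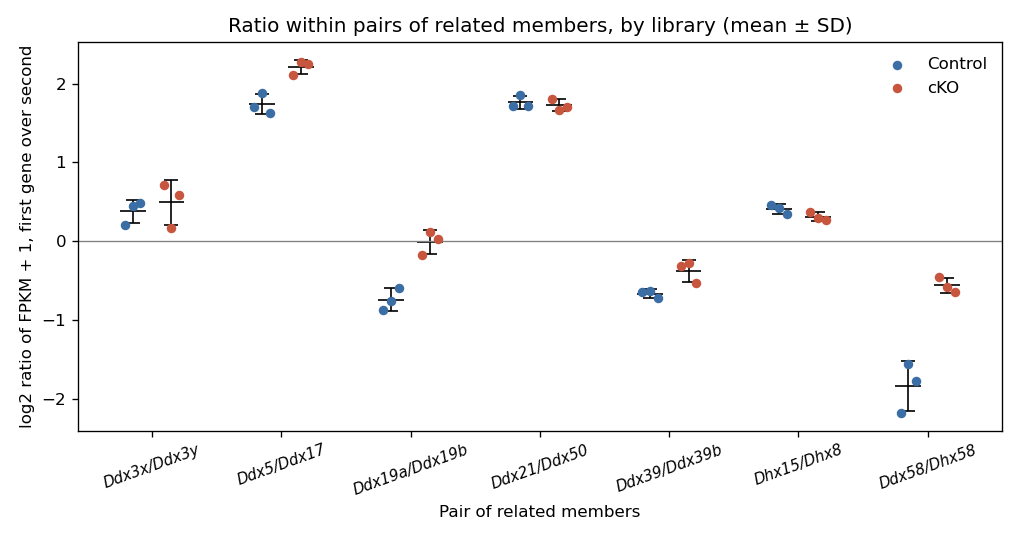
Log2 ratio of FPKM + 1 of the first gene over the second in 7 pairs of related members, with a point for each library and the mean ± SD of 3 libraries. The groups are apart for *Ddx5/Ddx17*, *Ddx19a/Ddx19b*, *Ddx39/Ddx39b* and *Ddx58/Dhx58* and overlap in the other 3 pairs.

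Helicases outside the 51 members, with *Ddx4* and *Ddx25* among them, were also called in both directions. Of 26 listed, 25 were tested, 5 were higher and 7 lower, beside 11.8% and 22.2% of all genes, and the median of the 25 log2 fold changes was -0.0014. Among those that rose were *Aqr*, an intron-binding helicase of the spliceosome (log2 fold change 0.42, adjusted p = 0.0117), and the initiation factor *Eif4a1* (0.37, adjusted p = 0.00564). *Eif4a1* was at 113, 121 and 112 FPKM in Control and 156, 148 and 145 FPKM in cKO. The 3 largest falls were those of the testis helicase *Ddx25* (-1.02, adjusted p = 0.000311), *Dqx1* (-0.75, adjusted p = 0.0101) and the meiotic DNA helicase *Hfm1* (-0.63, adjusted p = 0.0227). *Ddx25* was at 22.8, 21.6 and 18.1 FPKM against 9.77, 9.82 and 9.65 FPKM. The call of *Hfm1* was lost without Control1, Control3, cKO1 or cKO3 (adjusted p = 0.0742 to 0.0776) and with the replicate block (0.0683), and that of *Dqx1* with quantile normalization (0.0744).

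**Figure D5:**
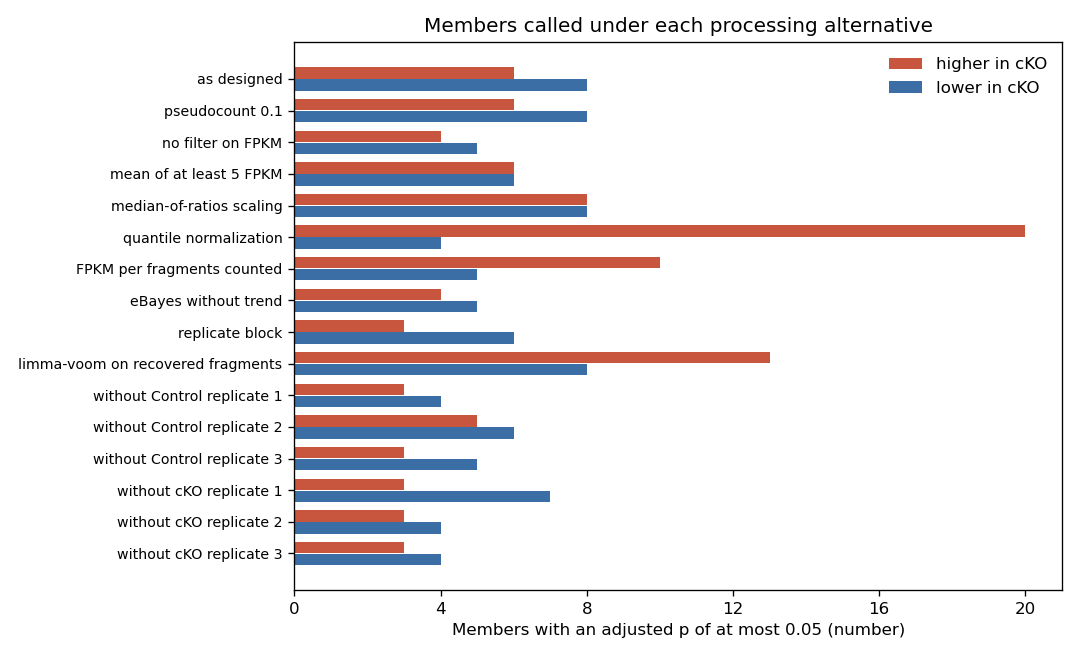
Number of members with an adjusted p of at most 0.05, higher and lower in cKO, under the processing as designed and 15 alternatives. Higher calls range from 3 to 20 and lower calls from 4 to 8 over the settings drawn, which leave out the minimum change of 0.5, and quantile normalization gives the widest split.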

How the data were processed

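The authors deposited 1 table of FPKM for 54532 genes with gene lengths. The submitters' processing notes name HISAT2 2.0.5 and mm10; the counter, the strand setting and the scaling are not given in the sources used here. FPKM times length gave whole fragments for 100% of values (tolerance 0.1), 14447887 to 17310353 per library, so the deposited FPKM carry a denominator of 0.971 to 1.05 times each library's sum. From these FPKM, log2(FPKM + 1) was computed and genes averaging 1 FPKM or more were fitted with limma 3.58.1 in R 4.3.3 (lmFit, eBayes with trend), with Benjamini-Hochberg adjustment over 15451 genes. Log2 fold changes therefore understate low genes. The fit was tested on simulated data. Coordinates come from GENCODE M21 (GRCm38), identical to the table for 50 of 51 members, and promoters from RefSeq GRCm38.p6. Values in every library are given for the 10 largest rises and falls among called members (all, if fewer), the 5 most abundant members and the paired members, and for other helicases the 3 largest rises and falls are named, of which 1 is not reported here. Members and lists were chosen with earlier results of these data known. Alternatives were another pseudocount, filter, scaling, variance trend, replicate block, limma-voom, a minimum change and each library left out; those for other helicases were added after seeing the data.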

Additional observations from a re-analysis of the deposited data

How the results depend on the processing

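As designed, 6 members were higher and 8 lower, and the members' median change was 0.07 on the log2 scale. Higher members numbered 4 without a filter and without the variance trend, 10 with FPKM per fragments counted, 13 with limma-voom and 20 with quantile normalization, and 0 with an absolute log2 fold change of at least 0.5. The share of all genes called higher moved with these counts, from 4.37% without a filter and 10.7% without the trend to 14.8%, 16.1% and 33.4%. Lower members numbered 5 without a filter, with FPKM per fragments counted and without the trend, and 4 with quantile normalization or that minimum change, while 12.1%, 21.1%, 21.7% and 16.4% of all genes were lower without a filter, with FPKM per fragments counted, without the trend and with quantile normalization. For the minimum change, the share of all genes called is not given here. Whatever the adjusted p, 8.16% of members and 28.7% of all genes had a change of that size. With the replicate number as a replicate block, 3 were higher and 6 lower (5.77% and 18.6% of all genes). Leaving out each library in turn gave 3 to 5 higher, 4 to 7 lower (6.27% to 11.4% and 17.4% to 22.7% of all genes) and a median of 0.059 to 0.117. The median was 0.12 with FPKM per fragments counted and with limma-voom, and 0.21 with quantile normalization. The cause of these shifts was not tested. The ratio of *Ddx58* to *Dhx58* differed by 1.83 with 0.1 FPKM added in place of 1, against 1.28. The 14 called members and the other tested members with values given in every library kept their direction under every alternative run, as did the ratios apart from that of *Ddx21* to *Ddx50*, whose difference of -0.03 was 0.01 without Control2. Of members given by their log2 fold change alone, *Dhx57*, *Ddx24*, *Ddx55*, *Dhx37*, *Ddx1*, *Ddx11*, *Ddx18*, *Ddx28* and *Dhx30*, none of them called, changed sign under at least 1 alternative. Quantile normalization ended the calls of *Ddx19b*, *Ddx59*, *Dhx16* and *Dhx29*, FPKM per fragments counted those of *Ddx19b*, *Dhx16* and *Dhx29*, and dropping the filter or the trend those of *Ddx19b*, *Ddx3y*, *Dhx16*, *Dhx29* and *Dhx36*. The replicate block ended those of *Ddx19b*, *Ddx3y*, *Dhx29*, *Dhx36* and *Dhx9* (adjusted p = 0.0715, 0.135, 0.0877, 0.135 and 0.0564). A mean of at least 5 FPKM left *Ddx59* and *Dhx58* untested. No sign of pairing by replicate number was seen: same-numbered libraries correlated at -0.001, -0.11 and 0.02 in their deviations from the group means. With 3 libraries per group, these values cannot settle whether the libraries were prepared in pairs. Counts were lowest for *Ddx60*, *Ddx58* and *Dhx58*, with as few as 12, 16 and 33 fragments, and among tested members *Dhx16* had the largest SE (0.18).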
